A study of Mus musculus with 6 samples.

Results

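Hgf, Lrat and Reln are genes of the quiescent hepatic stellate cell, and they are described here across 6 mouse liver libraries. They are 3 of the 1834 genes in the deposited table and were selected on their normalised read counts in these libraries, as stellate cell genes whose levels were already known to be lower in one group. Their levels are therefore a description, without a test. The control group (AAV-GFP, genotype WT, 3 libraries) was given an adeno-associated virus (AAV), a vector that carries a gene into liver cells, with green fluorescent protein. The other group (AAV-Ly6d, genotype Ly6d overexpression, 3 libraries) was given an AAV with Ly6d, which encodes a cell surface protein attached through a lipid anchor. Both groups were on the same diet, and the series title places the study in metabolic dysfunction-associated steatotic liver disease. The sources used here do not give the diet, the vector's promoter, or the strain, sex and age of the mice. The RNA came from liver, and no label ties a library to its own mouse, so p-values measure only the spread between these libraries, which may be technical.

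Stellate cells lie between the sinusoidal endothelium and the hepatocytes and hold most of the body's vitamin A as retinyl ester in lipid droplets. In injured liver they can lose these droplets, turn into contractile myofibroblasts and lay down collagen. Hgf encodes hepatocyte growth factor, a ligand secreted by stellate cells as an inactive chain, which proteases activate and which binds the receptor Met on hepatocytes. Lrat encodes lecithin retinol acyltransferase, the enzyme that makes retinyl ester and serves as a marker of the stellate lineage. Reln encodes reelin, a large secreted glycoprotein that binds the lipoprotein receptors Vldlr and Lrp8 and that stellate cells make in the liver.

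The 3 genes differ widely in structure (annotation on GRCm38, the mm10 assembly). Hgf (ENSMUSG00000028864) lies on the plus strand of chromosome 5 from 16553495 to 16620152, and its longest coding transcript has 19 exons and 3468 bases. Reln (ENSMUSG00000042453) lies on the minus strand of the same chromosome from 21884454 to 22344702, with 65 exons and 11699 bases in the longest coding transcript. Lrat (ENSMUSG00000028003) is on chromosome 3, also on the minus strand, between 82892579 and 82903973, and has a single annotated transcript of 2 exons and 5351 bases. Exons of Hgf share 484 bases with the unconfirmed gene model Gm43489 on the same strand, and exons of Reln share 246 bases with the antisense gene Gm10475. The sources used here do not give the strand setting of the counting, so reads from these shared bases cannot be told apart. No exon of Lrat overlaps another annotated gene.

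The 250 bases before each gene's most upstream RefSeq start are shown as a description, from the RefSeq table on GRCm38.p6. Capitals mark matches on either strand to CANNTG, the E-box core of basic helix-loop-helix factors, or to GGGCGG, the GC box of Sp-family factors. The stretches are chr5:16553245-16553494 (plus strand) for Hgf, chr3:82903975-82904224 (minus strand) for Lrat and chr5:22344706-22344955 (minus strand) for Reln.
Hgf: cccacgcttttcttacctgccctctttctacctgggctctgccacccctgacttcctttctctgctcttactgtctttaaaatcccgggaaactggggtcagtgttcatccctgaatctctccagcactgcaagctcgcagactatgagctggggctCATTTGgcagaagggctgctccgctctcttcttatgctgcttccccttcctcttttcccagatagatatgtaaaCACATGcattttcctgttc
Lrat: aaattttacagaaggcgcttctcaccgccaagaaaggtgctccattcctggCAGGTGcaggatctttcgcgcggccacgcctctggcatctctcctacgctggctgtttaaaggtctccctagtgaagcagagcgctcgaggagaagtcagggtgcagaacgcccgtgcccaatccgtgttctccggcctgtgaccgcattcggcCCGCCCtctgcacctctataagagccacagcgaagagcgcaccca
Reln: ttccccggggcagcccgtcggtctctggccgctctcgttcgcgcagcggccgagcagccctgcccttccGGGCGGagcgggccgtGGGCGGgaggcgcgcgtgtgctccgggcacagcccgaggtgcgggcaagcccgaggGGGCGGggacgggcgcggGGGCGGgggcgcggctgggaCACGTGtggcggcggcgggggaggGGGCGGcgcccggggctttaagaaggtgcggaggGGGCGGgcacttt

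The 3 stretches shared few of the searched letters. Over the whole 300-base window, which runs 50 bases past the start, CANNTG matched 2 times in Hgf, 1 time in Lrat and 1 time in Reln, against a match in 72.1% of the 27025 promoters of the same length. GGGCGG matched 0 times in Hgf, 2 times in Lrat and 6 times in Reln, and 35.9% of all promoters held it. The TATA box letters TATAAA had 0 matches on either strand in the windows of all 3 genes and stood in 14.2% of all promoters. The nuclear receptor half-site AGGTCA also had 0 matches, against 16.0% of promoters. The homeodomain core TAATTA had 0, against 5.32%. The AP-1 site TGANTCA had 0, against 7.92%. Matches to different motifs could overlap. The GC content of the windows was 51.3% for Hgf, 60.7% for Lrat and 80.7% for Reln, against a median of 52.7%. Reln thus had a GC-rich start, higher than 99.2% of promoters, while Hgf lay near the median. A match is a description of letters and not of a bound site.

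Libraries differed within the groups in ways that touch the 3 genes. The 1834 genes held between 3248078 and 4359932 reads per library, recovered from the deposited values, and these sums cover part of each library. Ly6d, the gene carried by the vector, had a normalised read count of 9.68 to 182 in the AAV-GFP libraries and of 1799 to 3275 in the AAV-Ly6d libraries. AAV-GFP replicate 2 was higher than the mean of the other AAV-GFP libraries for long transcripts. Its median ratio was 1.11 over the 1780 tested genes, 1.33 over 377 genes with a transcript length within 25% of Lrat (by ratio), and 1.79 over 101 genes as long as Reln. AAV-Ly6d replicate 1 was low in stellate genes. Its median ratio to the other AAV-Ly6d libraries was 0.532 over 13 other stellate list genes, 0.966 over all tested genes and 0.907 over 13 endothelial genes. Results are therefore also given without these libraries.

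Hgf was lower in every AAV-Ly6d library than in any AAV-GFP library. Its normalised read count (reads divided by the authors' scaling factor of the library) was 377, 529 and 392 in AAV-GFP replicates 1 to 3, from 390, 492 and 465 reads. In AAV-Ly6d replicates 1 to 3 it was 89.4, 165 and 146, from 92, 166 and 134 reads. AAV-GFP replicate 2 was the highest library and AAV-Ly6d replicate 1 the lowest, and the lowest control still held 2.28 times the highest AAV-Ly6d library. The group means were 433 ± 83.8 and 134 ± 39.4 (SD, n = 3 each), so that AAV-Ly6d had 30.8% of the control level. The log2 fold change on the log2(value + 1) scale was -1.72 (SE 0.30), which is a description here.

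Lrat, the retinol-esterifying enzyme gene, had nearly the same pattern at a lower count. The AAV-GFP libraries held 278, 445 and 311 and the AAV-Ly6d libraries 63.2, 128 and 122. Again AAV-GFP replicate 2 was highest and AAV-Ly6d replicate 1 lowest, with no overlap between the groups. The means were 345 ± 88.8 and 104 ± 35.6 (SD, n = 3 each), or 30.2% of control, with a log2 fold change of -1.75 (SE 0.34).

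Reln, the gene of the secreted glycoprotein, had the largest spread among the controls. Its values were 1209, 2491 and 1413 in AAV-GFP and 395, 795 and 554 in AAV-Ly6d. The groups did not overlap, but the lowest control held only 1.52 times the highest AAV-Ly6d library. The means were 1705 ± 689 and 581 ± 202 (SD, n = 3 each), or 34.1% of control, with a log2 fold change of -1.54 (SE 0.34). AAV-GFP replicate 2 held 1.90 times the mean of the other controls for Reln, 1.51 times for Lrat and 1.38 times for Hgf. Without that library the ratio of control to AAV-Ly6d means was 2.26 for Reln in place of 2.93, 2.83 for Lrat in place of 3.31 and 2.88 for Hgf in place of 3.24.

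**Figure D1:**
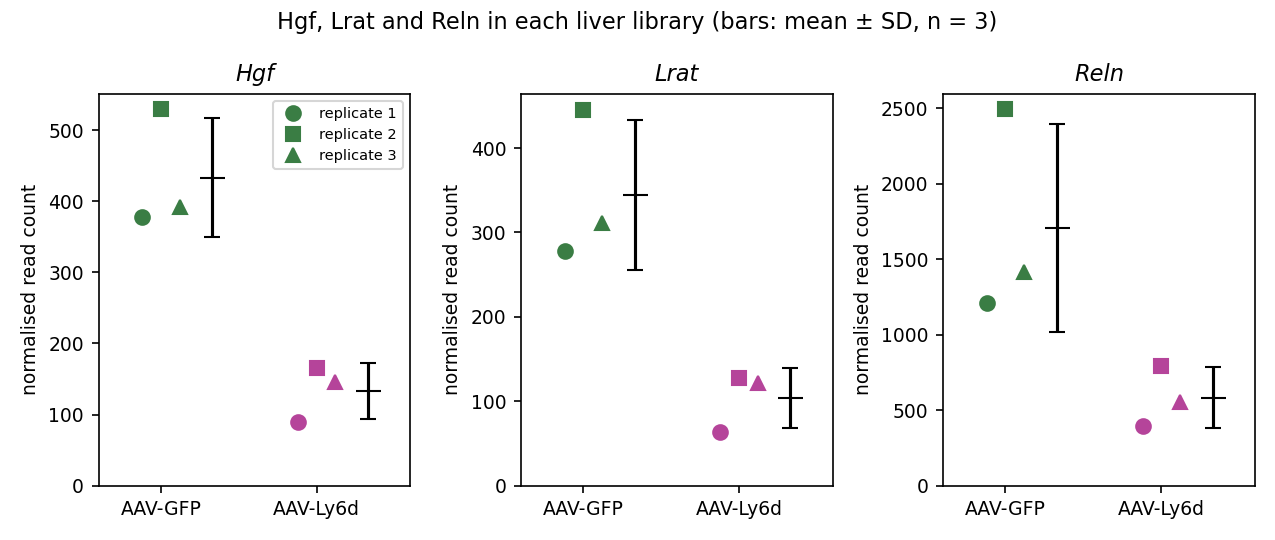
Normalised read counts of Hgf, Lrat and Reln in the AAV-GFP and AAV-Ly6d liver libraries; each symbol is 1 library, and the black bars are the group mean and SD (n = 3). In all 3 panels every control lies above every AAV-Ly6d library, AAV-GFP replicate 2 is highest and AAV-Ly6d replicate 1 is lowest.

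The absence of overlap has to be read against the table, in which most genes differed between the groups (1394 of 1780 had an unadjusted limma p under 0.05). Of the 1780 tested genes, 84.5% had no overlap between the groups, so that its absence in all 3 stellate genes is no result about them. All 3 passed the filter on low values (3 or more libraries at 1 or above). The tested genes had a median log2 fold change of -0.67, and 60.7% of them were lower in AAV-Ly6d. Lower log2 fold changes than those of Lrat, Hgf and Reln were held by 12.2%, 12.6% and 15.8% of tested genes. In bulk liver, fewer stellate cells and less of these transcripts per cell cannot be told apart.

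Transcript length moved with the difference as well. Of the 101 tested genes with a length within 25% of Reln, 97.0% were lower in AAV-Ly6d, with a median log2 fold change of -0.90, and 17.8% were as low as Reln. Around Lrat the median of 377 genes was -0.84 and 10.9% were as low. Around Hgf the median of 450 genes was -0.69 and 10.7% were as low. Among genes of a similar mean level (within 0.5 on the log2 scale), 2.07% of 242 were as low as Hgf, 2.18% of 229 as low as Lrat and 1.52% of 198 as low as Reln. The medians of these genes were -0.61, -0.65 and 0.43, and only 40.9% of those around Reln were lower in AAV-Ly6d. Because the members were selected as lower in these libraries, these percentages are a description. Without AAV-GFP replicate 2 the median of the genes as long as Reln was -0.59 and Reln had a log2 fold change of -1.23. The part of transcript length in these differences was not tested.

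Per kilobase of the longest coding transcript, Reln and Hgf stood at similar levels and Lrat lower. In AAV-GFP the normalised read count per kilobase was 146 ± 58.9 for Reln, 125 ± 24.2 for Hgf and 64.4 ± 16.6 for Lrat (SD, n = 3). In AAV-Ly6d it was 49.7 ± 17.2, 38.5 ± 11.4 and 19.5 ± 6.66 in the same order. Lrat was lowest in all 6 libraries. Reln stood above Hgf in 5 libraries and below it in AAV-GFP replicate 1 (103 against 109), and these neighbours did not differ beyond their spread. The order was thus the same in both groups, on a scale that depends on which transcript sets the length.

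Within a library, the proportions of the 3 genes overlapped between the groups. The ratio of Lrat to Hgf counts was 0.736, 0.841 and 0.794 in AAV-GFP and 0.707, 0.771 and 0.836 in AAV-Ly6d. The groups overlapped, with means of 0.790 ± 0.0529 and 0.771 ± 0.0646 (SD, n = 3 each). For Reln to Hgf the ratio was 3.84 ± 0.777 in the controls and 4.34 ± 0.508 in AAV-Ly6d, and for Reln to Lrat it was 4.83 ± 0.667 and 5.68 ± 0.979. Both also overlapped between the groups. A ratio within a library does not depend on the scaling of that library.

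The order of the 6 libraries was identical for the 3 genes. From high to low it was AAV-GFP replicates 2, 3 and 1, then AAV-Ly6d replicates 2, 3 and 1. Of the tested genes, 67 others than a given member (the remaining members among them) had this order. Pearson's r over the 6 libraries, on the log2 scale, was 0.996 between Hgf and Lrat, 0.973 between Hgf and Reln and 0.976 between Lrat and Reln. These are descriptions, since the libraries share the group difference that most genes of the table show, and 17.4%, 16.0% and 17.9% of tested genes had an r over 0.9 with Hgf, Lrat and Reln.

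The genes most like the members were found by the root-mean-square difference between log2 values centred on each gene's mean. Colec10, which encodes a secreted collectin and belongs to the stellate list, was nearest to both Hgf (0.087, r = 0.995) and Lrat (0.075, r = 0.998). Its normalised read count was 894 ± 178 in the controls and 285 ± 92.3 in the AAV-Ly6d group (SD, n = 3). Hgf and Lrat stood second in each other's lists, at a difference of 0.090. Next to Hgf came Btnl9 (0.169), Itpkb, an inositol trisphosphate kinase gene (0.171), and Plekhg1 (0.171). Next to Lrat came Hspa12a (0.136), Dennd2c (0.178) and the sulfotransferase gene Chst7 (0.181), of which Dennd2c held only 18.9 ± 2.29 in AAV-GFP.

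Reln was nearest to genes other than those of the stellate list. Itpkb (0.117), Prkca, the protein kinase C alpha gene (0.147), and Casp12 (0.150) led its list. Pik3r3, a regulatory subunit of phosphoinositide 3-kinase (0.152), and Tln2, the talin 2 gene (0.156), followed. Hgf and Lrat stood at ranks 16 and 18 for Reln, with differences of 0.212 and 0.217.

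**Figure D2:**
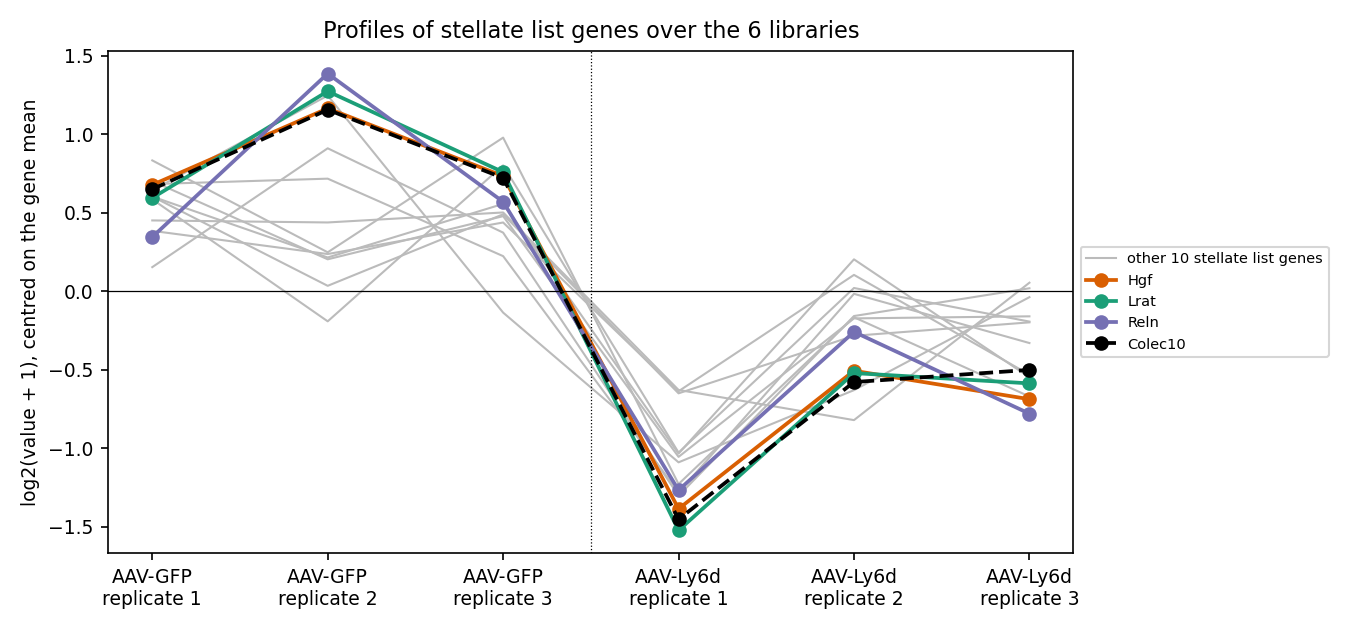
Values of 14 stellate list genes, as log2(value + 1) centred on each gene's mean, over the 6 libraries, which have no order within a group; coloured lines are Hgf, Lrat, Reln and Colec10, and grey lines are the other 10 genes. Hgf, Lrat and Colec10 nearly coincide, and most genes are lowest in AAV-Ly6d replicate 1.

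Other stellate genes were mostly lower too. Most differed by less than the members, which were selected as lower in these libraries, but Colec10 (-1.69) lay below Reln (-1.54). Of 32 listed genes of quiescent stellate cells, 16 were in the table, 3 of them the members. Of the 13 others, 8 fell in AAV-Ly6d at a limma adjusted p under 0.05, 0 rose and 5 did not pass. This compares with 28.0% of the 1780 tested genes that fell and 15.9% that rose, in a table that appears to hold mainly genes that differ. The median log2 fold change of the 13 was -0.93, against -0.67 over the tested genes. Their summed value ranged from 4049 to 4197 in AAV-GFP and from 1536 to 2934 in AAV-Ly6d, so the controls varied little in the sum although the members did. Single genes of the sum varied in opposite directions. In AAV-GFP replicates 1 to 3 Colec10 held 772, 1098 and 812, and Rgs5 held 995, 760 and 963.

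Colec10 fell by 1.69 on the log2 scale (SE 0.30, limma adjusted p = 0.0272), the most of the 8, and its call was lost without AAV-Ly6d replicate 1 or 3. The ligand genes Bmp5, of the bone morphogenetic protein family (-1.38), and Rspo3, a potentiator of Wnt signalling (-0.93), fell. The receptor genes Pth1r, of parathyroid hormone (-1.08), and Vipr1, of vasoactive intestinal peptide (-0.75), fell as well. So did the pericyte regulator Rgs5 (-0.92) and the matrix proteoglycan gene Prelp (-0.71). Of the genes that did not pass, Hhip, which binds hedgehog ligands, had a log2 fold change of -1.17, the neurotrophin receptor gene Ngfr -0.96 and Bmp10 -0.92.

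The calls in the stellate list rested on single libraries. With AAV-GFP replicate 1, 2 or 3 left out, the number of the 13 that fell was 1, 4 and 1, and with AAV-Ly6d replicate 1, 2 or 3 left out it was 0, 2 and 0. In the whole table no gene was called by limma once AAV-Ly6d replicate 1 was left out, when 773 genes had an unadjusted p under 0.05. In these fits the 13 had a median log2 fold change of -1.19 to -0.63, and -0.63 was the value without AAV-Ly6d replicate 1, the library lowest in 12 of the 13. AAV-GFP replicate 2 was the highest control for 5 of the 13 and the lowest control for 8, unlike its place in Hgf, Lrat and Reln. Dividing each library by its median ratio to the others moved the median of all genes by 0.34, after which 1 of the 13 fell and 1 rose.

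**Figure D3:**
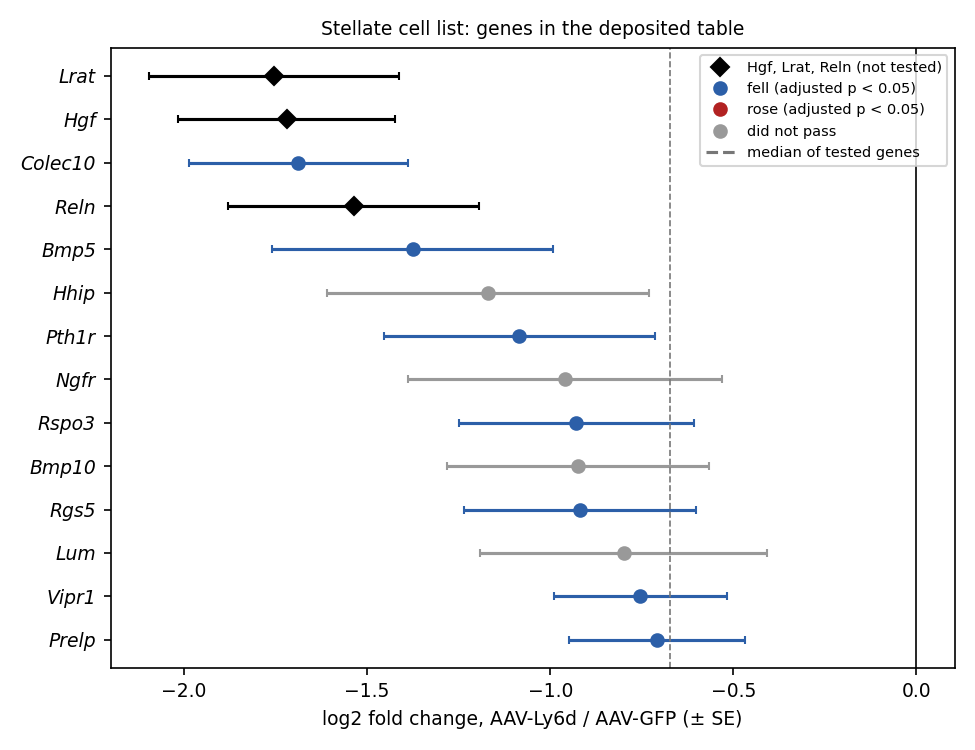
Log2 fold change (AAV-Ly6d over AAV-GFP, limma) with its SE for 14 stellate list genes; diamonds are Hgf, Lrat and Reln, which were not tested, and colours give the call. All those shown lie below 0, and the dashed line is the median of the tested genes at -0.67.

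Genes of other liver cell types moved beside the stellate genes. All 13 endothelial markers in the table, of 21 listed, fell, with a median of -1.37 and a sum of 11200 to 15303 in AAV-GFP and 4623 to 5711 in AAV-Ly6d. Kdr (-1.88), Fcgr2b (-1.37) and Stab2 (-1.30) had the smallest p. The count was 8 if AAV-GFP replicate 1 was left out, 2 if AAV-Ly6d replicate 3 was, and 0 if AAV-Ly6d replicate 1 was. Of 9 genes of activated stellate cells and myofibroblasts, of 25 listed, 6 fell and 3 did not pass. Of all tested genes 28.0% fell. With AAV-Ly6d replicate 2 left out 3 fell, and 0 with AAV-GFP replicate 1 or 3 or AAV-Ly6d replicate 1 or 3 left out. Lox, the collagen cross-linking enzyme (-2.03), the protease gene Mmp2 (-1.38) and Col3a1 (-1.48) were among the 6, and the sum was 1095 to 1903 in AAV-GFP and 374 to 963 in AAV-Ly6d. Markers of quiescent and of activated stellate cells were thus lower in the same libraries. In AAV-Ly6d replicate 1 the median ratio to the other AAV-Ly6d libraries was 0.545 over the 9 myofibroblast genes, close to that of the stellate list.

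Over all 1780 tested genes 28.0% fell and 15.9% rose, and the counts of the small lists that follow are to be read beside these shares. The portal fibroblast and smooth muscle list had 2 of 17 genes in the table. Msln fell, with 5.81, 15.1 and 20.3 in AAV-GFP and 0, 0 and 2.18 in AAV-Ly6d, and the call was lost without AAV-GFP replicate 3 or any one AAV-Ly6d library. Of 6 hepatocyte markers, of 12 listed, 4 rose and 0 fell, among them Tdo2 (0.71), Tat (1.19) and Hnf4a (0.65), whose calls held only without AAV-GFP replicate 2 among the fits that left out a library. Their sum was 365811 to 863633 in AAV-GFP and 470801 to 508729 in AAV-Ly6d, and the upper end is AAV-GFP replicate 2. Most of that upper end was Apob, which did not pass (-0.61). It held 743167 there, against 201516 and 186314 in AAV-GFP replicates 1 and 3. The hepatocyte sum was the largest of any list in every library, as the liver label implies. Of 3 cholangiocyte genes, of 10 listed, Tff3 (4.17) and Sox9 (1.38) rose and Pkhd1 fell (-1.36). Without AAV-Ly6d replicate 1 none of these 3 passed, Sox9 and Pkhd1 also failed without AAV-Ly6d replicate 2 or 3 or AAV-GFP replicate 1, and Pkhd1 without AAV-GFP replicate 3. None of the 14 listed Kupffer cell genes or the 12 lymphocyte genes was in the table, and they were not analysed here. No listed marker in the table was at 0 in all libraries. The part of these other cell types in the difference of Hgf, Lrat and Reln was not tested.

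Around Hgf, the table held few genes of its pathway. Of 26 listed activators, inhibitors, receptors and signalling genes 3 were tested, Met not among them. F12, which encodes coagulation factor XII, a protease that can activate the growth factor, rose from 6006 ± 1611 to 9414 ± 193 (SD, n = 3 each), a log2 fold change of 0.69 (limma adjusted p = 0.0473). Timp3, a metalloprotease inhibitor that can limit receptor shedding, fell from 283 ± 50.1 to 139 ± 83.9, a log2 fold change of -1.16 (adjusted p = 0.0497). Sdc1, a heparan sulfate proteoglycan gene, did not pass (0.43, adjusted p = 0.0576). A share of 43.9% of tested genes passed in either direction, so 2 of 3 is close to the table. The call of F12 held only without AAV-GFP replicate 2 among the fits that left out a library, and that of Timp3 only without AAV-Ly6d replicate 2.

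Around Lrat, genes of retinol handling went both ways. Of 43 listed genes 12 were tested, of which 3 fell, 1 rose and 8 did not pass, with a median log2 fold change of -0.57. This is near the table, in which 28.0% of tested genes fell and 15.9% rose. Cyp26b1, an enzyme that breaks down retinoic acid, had 319, 266 and 238 in the controls and 98.2, 19.9 and 33.7 in AAV-Ly6d. The groups did not overlap, and it fell by 2.72 on the log2 scale (SE 0.53, limma adjusted p = 0.0287), a call lost without AAV-Ly6d replicate 1 or 3. In contrast to the members, it was highest among the AAV-Ly6d libraries in replicate 1.

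Rarb, a retinoic acid receptor gene that retinoic acid induces, fell from 30.4 ± 15.2 to 6.08 ± 4.29 (-2.20), and Bco2, a carotenoid-cleaving enzyme gene, fell from 285 ± 37.6 to 166 ± 26.2 (-0.78; SD, n = 3). Pnpla2, the lipase of stored triglyceride, rose from 1356 ± 470 to 2527 ± 124 (0.97). Among those that did not pass, Cyp26a1, the other main retinoic acid hydroxylase and a retinoic acid target, had a log2 fold change of -1.76, the receptor gene Rara 1.00 and Rbp4, the plasma carrier of retinol made by hepatocytes, 0.48. Cyp26a1 held 42.6, 8.61 and 21.9 in AAV-GFP and 10.7, 2.99 and 4.35 in AAV-Ly6d, so its groups overlapped. Both Cyp26 genes and Rarb lay on the side of Lrat. Cyp26a1 and Rarb each rested on only 18 reads over all AAV-Ly6d libraries. With AAV-GFP replicate 1, 2 or 3 left out, 1, 6 and 1 genes passed, and with AAV-Ly6d replicate 1, 2 or 3 left out, 0, 2 and 0. After the rescaling 7 of the 12 passed, 5 of them higher.

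Around Reln, few genes were in the table. Of 26 listed receptors, adaptors, kinases and proteases 3 were tested, and 1 fell, a share near the 28.0% of all tested genes. It was the receptor gene Vldlr, with values of 144, 309 and 244 in AAV-GFP and 31.1, 37.9 and 40.3 in AAV-Ly6d. The lowest control lay well above the highest AAV-Ly6d library, and Vldlr fell by 2.58 on the log2 scale (SE 0.34, limma adjusted p = 0.0141). The call was lost without AAV-Ly6d replicate 1, and 2 genes of the list passed without AAV-GFP replicate 2. Vldlr is also a lipoprotein receptor of hepatocytes, and bulk liver does not show which cells its reads came from. Adamts5, a metalloprotease gene (-1.04, adjusted p = 0.0540), and Dab2, an adaptor gene (-0.58, adjusted p = 0.0656), did not pass.

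**Figure D4:**
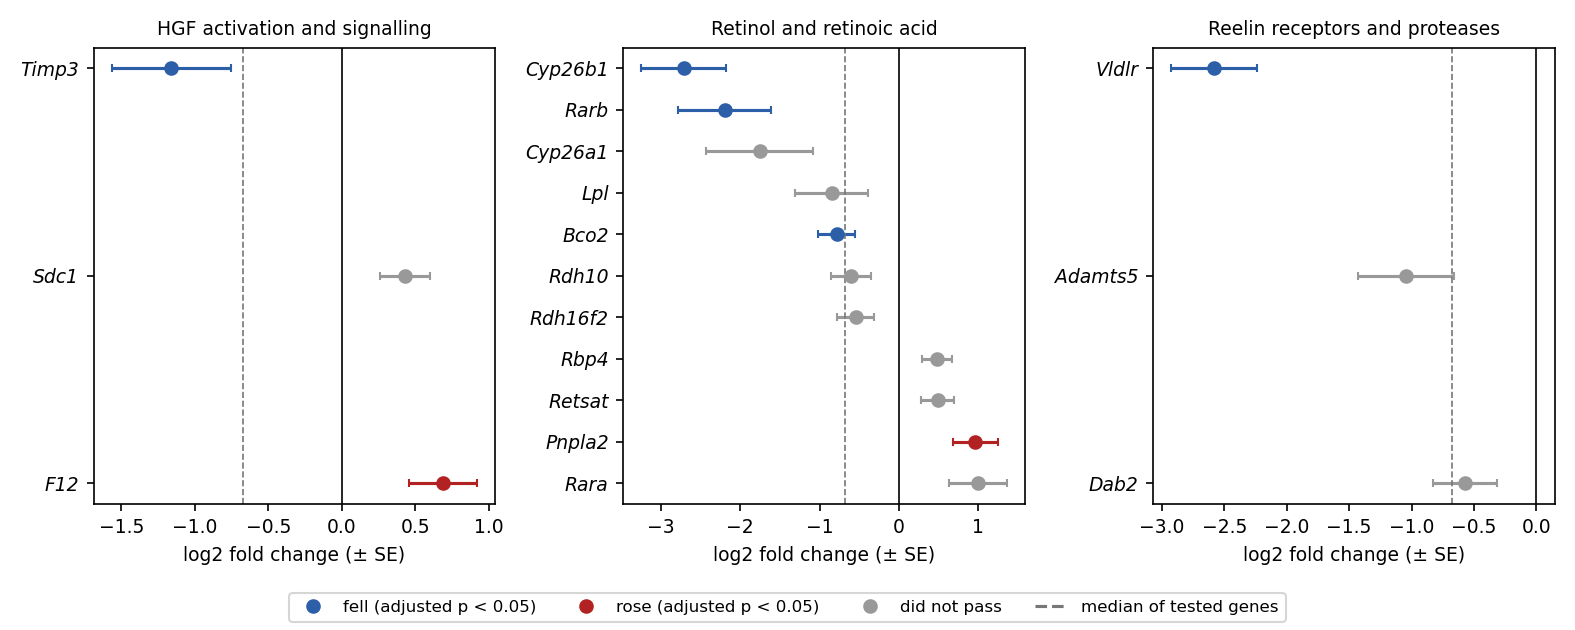
Log2 fold change (AAV-Ly6d over AAV-GFP, limma) with its SE for genes of the lists around Hgf, Lrat and Reln; colours give the call and the dashed line is the median of the tested genes. Cyp26b1, Rarb and Vldlr lie below -2, while F12 and Pnpla2 lie above 0.

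The size of the difference in Hgf, Lrat and Reln varied with the processing less than the calls around them. Over 16 alternatives the log2 fold change ranged from -1.90 to -1.38 for Hgf, from -1.93 to -1.41 for Lrat and from -1.79 to -1.19 for Reln. The values nearest to 0 came from the rescaling by the median ratio. Leaving out AAV-Ly6d replicate 1, the lowest library for each gene, gave -1.46, -1.43 and -1.29 in the same order. Leaving out AAV-GFP replicate 2, the highest, gave -1.57, -1.55 and -1.23.

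**Figure D5:**
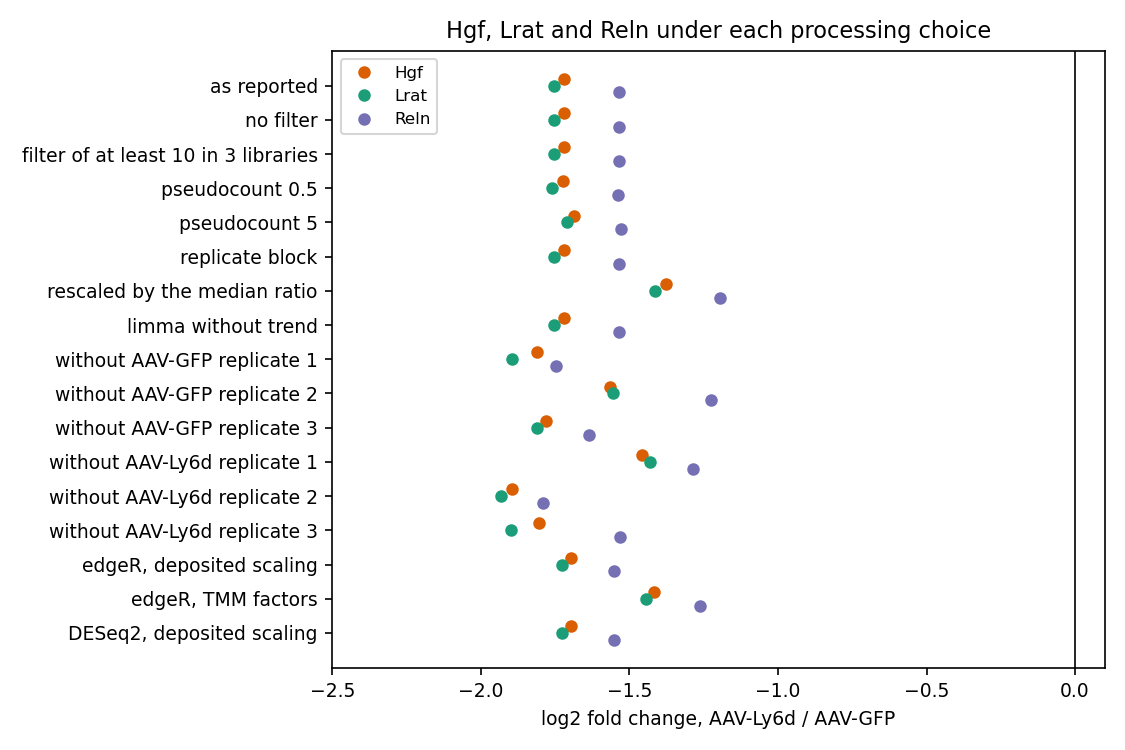
Log2 fold change (AAV-Ly6d over AAV-GFP) of Hgf, Lrat and Reln as reported and under each of 16 alternative choices of filter, pseudocount, scaling, libraries or tool. All points lie between -1.93 and -1.19, and those of Reln lie nearest to 0 under each choice.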

How the data were processed

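Liver RNA was sequenced in 3 AAV-GFP and 3 AAV-Ly6d libraries, grouped by their labels. Per the submitters' processing notes, the series involved Bowtie 0.12.2 and mm10, listed without role or settings. Not given in the sources used here are the read counter, the normalisation, the annotation and the rule that chose the 1834 genes. The authors deposited read counts normalised per library, treated here as a signal (never negative). All values (100%) of a column were whole multiples of 1 step, within 0.001, so reads could be recovered.

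Identifiers were matched to GENCODE M21, with symbols for 1833. Genes reaching 1 in 3 or more libraries (1780) entered limma 3.58.1 in R 4.3.3 (eBayes with trend) on log2(value + 1), with Benjamini-Hochberg adjustment. "Rose" and "fell" mean an adjusted p under 0.05. Fold changes on this scale understate the change of low genes. Because most genes of the table differ between the groups, as after a selection on these libraries, adjusted p-values may understate the error. The test was tried on simulated data.

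Named are Hgf, Lrat, Reln and Ly6d, and the called members of the stellate, HGF, retinoid and reelin lists with up to 4 others each. Up to 3 called members of each other list and the 5 genes most like each member are named too, as is Apob for its part in the hepatocyte sum. Some list genes are counted but not reported by name here. The members and lists were chosen with earlier results of these data known. Recovered reads were tested with edgeR 4.0.16 and DESeq2 1.42.0 as alternatives chosen after seeing the data. Across the tested genes, same-numbered libraries did not deviate together (r of -0.020, -0.047 and -0.058), so they were not treated as pairs. For Hgf, Lrat and Reln, however, the replicates had the same order, 2, 3 and 1, in both groups. With a replicate block their SE was 0.25, 0.27 and 0.19, in place of 0.30, 0.34 and 0.34.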

Additional observations from a re-analysis of the deposited data

How the results depend on the processing

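The log2 fold changes of Hgf, Lrat and Reln kept their direction in all 16 alternatives and moved by less than 1 SD between libraries (log2 scale, both groups pooled). The rescaling moved Hgf to -1.38, by more than the SD of its controls alone (0.27). Counts of calls moved more, and the cause was not tested. With a replicate block, 48 genes were called in place of 782, with 1 of the 13 other stellate genes, 0 myofibroblast, 0 portal fibroblast, 0 HGF pathway, 1 retinoid and 6 of the 13 endothelial genes. EdgeR on the deposited scaling called 465 genes, 3 of them stellate and 0 of the HGF pathway. With TMM factors it called 2 stellate genes lower and 7 retinoid genes. DESeq2 called 1338 genes, with 9 retinoid and 2 reelin genes. Adjusted over all 55450 annotated genes it called 124, with 1 stellate, 1 retinoid, 0 myofibroblast, 0 portal fibroblast and 0 HGF pathway genes. Rescaling by the median ratio left 1 stellate gene lower and 7 retinoid genes, and 69.4% of its 935 calls were higher, against 36.2% as reported and 69.1% of 967 with TMM factors. Without a filter 5 stellate genes fell and 1 HGF pathway gene was called. The stricter filter left 0 portal fibroblast and 1 HGF pathway gene, and pseudocounts of 0.5 and 5 left 1 HGF pathway gene each. Limma without trend called 3 stellate and 0 HGF pathway genes. Leaving out single libraries gave 0 to 607 calls, with 773 genes at an unadjusted p under 0.05 in the limma fit that called 0. In these fits the stellate count was 0 to 4, the myofibroblast count 0 to 4, the portal fibroblast count 0 to 1 and the HGF pathway count 0 to 1. The retinoid count was 0 to 6, the reelin count 0 to 2 and the endothelial count 0 to 13. The full depth of the libraries is not known, and Hgf and Lrat rest on 65 to 492 reads per library.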
